A study of Homo sapiens with 9 samples.

Results

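The Jumonji C (JmjC) histone demethylases were followed in 786-O cells, an established human clear cell renal carcinoma line that lacks functional VHL and therefore keeps HIF2α (EPAS1) at normal oxygen. The 10 genes KDM2A, KDM2B, KDM3A, KDM3B, KDM4A, KDM4B, KDM4C, KDM5B, KDM6B and JMJD6 were taken by name from 38021 genes in the read count table. The 9 RNA sequencing libraries fell into 3 groups of 3: cells carrying a control hairpin (shControl), a hairpin against ARNT (shARNT) and a hairpin against BMAL1 (shBMAL1). All cells were wild type by their label, were infected with lentivirus carrying a pLKO.1 vector, were selected and kept in puromycin, and were grown in medium with fetal bovine serum. Each target was reduced with a single hairpin in these libraries, so an effect of the target and an off-target effect of its hairpin cannot be told apart. The labels call the 3 libraries of a group biological replicates and do not say whether they came from separate infections.

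JmjC enzymes remove methyl groups from lysines of histones in a reaction that uses oxygen, iron and 2-oxoglutarate. They therefore require oxygen, and some of their genes, KDM3A and KDM4B among them, are known targets of hypoxia-inducible factors. ARNT is the classical partner of HIFα subunits at hypoxia response elements. BMAL1 is its relative in the circadian clock and binds E-boxes together with CLOCK. The comparisons ask how the transcripts of these oxygen-dependent enzymes stood when either partner was reduced.

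The libraries held between 33793043 and 35444731 reads assigned to genes. Each JmjC gene was covered by 689 to 5877 reads in a library, and its coefficient of variation within a group ran from 0.714% to 12.0%, with a median of 4.34%. ARNT stood at 2187, 2551 and 2318 normalised read counts in shControl and at 1239, 1238 and 1199 in the libraries with its hairpin, which gave a log2 change of -0.94 ± 0.07 (SE, DESeq2 adjusted p = 8.83e-35). BMAL1 stood at 752, 797 and 735 in shControl and at 346, 292 and 340 in shBMAL1, with a log2 change of -1.23 ± 0.11 (adjusted p = 2.51e-25). Each hairpin also went with a lower RNA level of the other gene: BMAL1 changed by -0.26 ± 0.10 in shARNT (adjusted p = 0.0294) and ARNT by -0.23 ± 0.08 in shBMAL1 (adjusted p = 0.0187). Both of these smaller calls were lost without shControl replicate 2 (adjusted p = 0.15 and 0.162), and also without shARNT replicate 3 for BMAL1 (0.22) and without shBMAL1 replicate 2 for ARNT (0.109). Protein went the other way: by immunoblot the study reported slightly more ARNT when BMAL1 was depleted, and slightly more BMAL1 when ARNT was. All 7 renal carcinoma markers examined were present, at 540 to 99638 normalised read counts, and 4 of them passed the test in shARNT and 5 in shBMAL1, where 35.4% and 36.8% of all genes tested did so. In shARNT CDH6 rose 2.02-fold and KRT8 by 0.31 on the log2 scale, and EPAS1 fell by 0.23 and VIM by 0.18. In shBMAL1 CDH6 rose 3.29-fold and PAX2 by 0.43 on the log2 scale, and PAX8 fell by 0.49, KRT18 by 0.40 and VIM by 0.21. Of 6 markers of other cell types, CD68 was abundant, at up to 7882, and fell by 0.31 on the log2 scale in shBMAL1 (adjusted p = 0.00152), and the other 5 (PTPRC, CD3E, PECAM1, CDH5 and ALB) did not exceed 8.95 in any library, with CD3E and CDH5 at 0 throughout, and summed to 4.02 to 9.10 in shControl, 7.80 to 11.8 in shARNT and 2.94 to 10.1 in shBMAL1. The share of reads from mitochondrial genes was 5.46% to 7.14% in shControl, 7.59% to 8.74% in shARNT and 8.71% to 9.66% in shBMAL1. This share was higher in every knockdown library than in any control library, and its part in the results was not tested. In bulk RNA, fewer cells of a kind and less RNA per cell cannot be told apart.

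All 10 JmjC genes were tested in each comparison. In shARNT against shControl, 4 of the 10 passed an adjusted p of 0.1, where 35.4% of all genes tested did so. KDM2A and KDM3A rose (16.5% of all genes rose), and KDM2B and KDM5B fell (19.0% of all genes fell). In shBMAL1 against shControl, 5 of the 10 passed, where 36.8% of all genes did. KDM3A, KDM5B and KDM6B rose (17.4% of all genes rose), and KDM2B and JMJD6 fell (19.4% fell). Between the knockdowns, in shBMAL1 against shARNT, 4 of the 10 passed, where 35.3% of all genes did. KDM5B and KDM6B were higher in shBMAL1 (17.3% of all genes were), and KDM2A and JMJD6 were lower (18.0% were). These shares lay near those of all genes, so the count itself does not set the JmjC genes apart. The median log2 fold change of the 10 genes was -0.06 in shARNT and 0.10 in shBMAL1, beside 0.0028 and 0.015 over all genes tested. The knockdown comparisons share their control libraries, and their values are given side by side only.

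**Figure D1:**
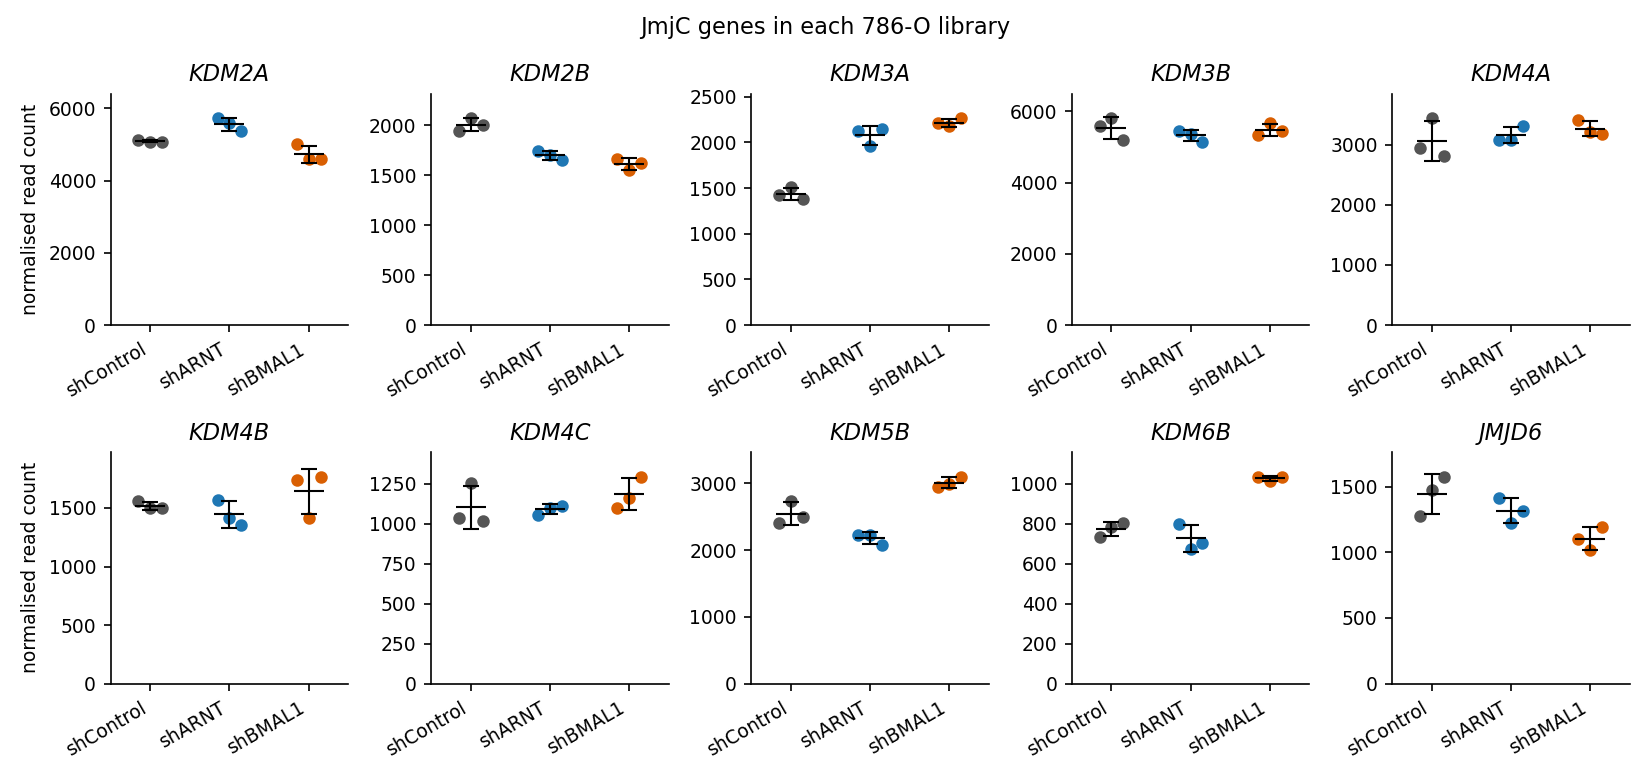
Normalised read count (vertical axis, from 0, one scale per gene) of each JmjC gene in the 9 libraries. Points are libraries, the wide bar is the group mean and the whiskers are 1 SD (n = 3); KDM3A is higher in all 6 knockdown libraries than in the controls, and KDM5B is lower in shARNT and higher in shBMAL1.

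KDM3A (GRCh37 chr2:86667770-86719839), which removes methyl groups from H3K9, had the largest change of the 10 genes in either knockdown. Its normalised read counts were 1426, 1510 and 1378 in shControl, 2124, 1961 and 2144 in shARNT, and 2210, 2175 and 2264 in shBMAL1. Every knockdown library lay above every control library, and every shBMAL1 library lay above every shARNT library. KDM3A was 1.45-fold higher in shARNT, with a log2 value of 0.53 ± 0.07 (SE, adjusted p = 1.32e-12), and 1.54-fold higher in shBMAL1, at 0.62 ± 0.08 (adjusted p = 5.8e-15). The difference between the knockdowns was 0.09, with a 95% interval of -0.05 to 0.24 (adjusted p = 0.376). KDM3A is widely known as a gene that hypoxia-inducible factors activate, and here it stood higher with either partner reduced.

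The promoter of KDM3A is shown because its transcript changed most. Sequences were RefSeq windows of 300 bases (250 before and 50 after a start site, GRCh38.p14), and 15 windows covered 9 of the 10 genes. Each window matched a single place in GRCh37, where only the chromosomes that hold these genes were searched. The windows were scanned on both strands for ACGTG and GCGTG, the cores of the hypoxia response element, and for the E-box CACGTG, which contains ACGTG. The first KDM3A start site held GCGTG once, at -26 from the start (GRCh37 chr2:86668456-86668485, plus strand), in capitals here.
KDM3A: ccgggaggctgtGCGTGtcttgtgagagct
A GCGTG is common: it occurred in 36.5% of 35116 promoter windows and in 11 of the 15 windows here, which belong to 8 of the 9 genes. The KDM3A windows overlap and hold the same GCGTG, which is counted in each. ACGTG occurred in 21.4% of all windows and in 3 of the 15, and CACGTG in 7.26% of all windows and in 2 of the 15, those of KDM4B and KDM4C. A match of letters is a description and shows no binding.

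KDM3B (GRCh37 chr5:137688374-137772717), the close relative of KDM3A with the same substrate, did not pass the test in any comparison. Its normalised read counts were 5600, 5805 and 5194 in shControl, 5462, 5358 and 5148 in shARNT, and 5335, 5673 and 5444 in shBMAL1, and the groups overlapped. The log2 fold change was -0.05 in shARNT (95% interval -0.17 to 0.06) and -0.01 in shBMAL1 (-0.15 to 0.12). Reads of KDM3A per read of KDM3B were therefore 0.255, 0.260 and 0.265 in the control libraries, 0.389, 0.366 and 0.416 in shARNT, and 0.414, 0.383 and 0.416 in shBMAL1. The ratio in every knockdown library was above that in every control library, and the knockdowns overlapped each other. The window of KDM3B held none of the 3 motifs.

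**Figure D2:**
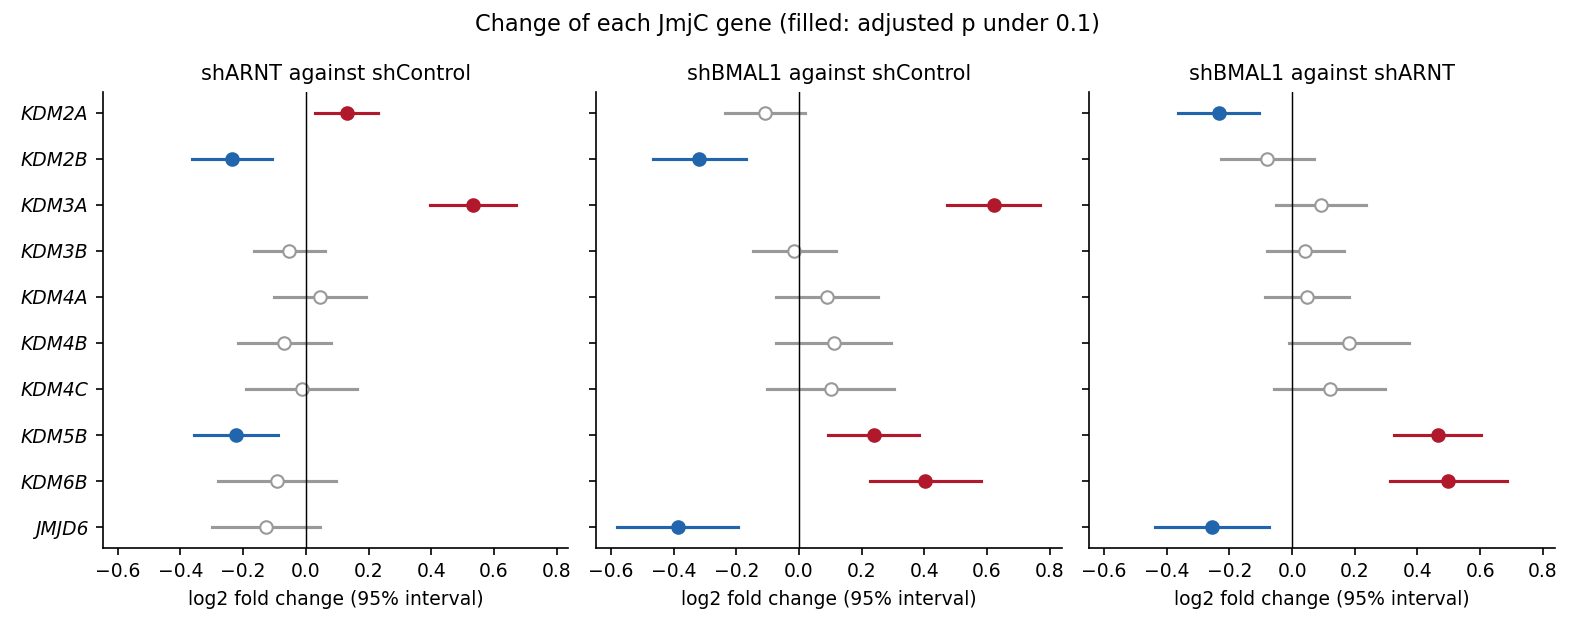
Log2 fold change of each JmjC gene (horizontal axis) with its 95% interval in the 3 comparisons, from DESeq2 on 3 libraries a group. Filled points passed an adjusted p of 0.1, red for higher and blue for lower; KDM3A lies at 0.53 and 0.62 in the knockdowns, and KDM5B lies on opposite sides of 0.

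KDM5B (GRCh37 chr1:202693623-202777615), which removes methyl groups from H3K4, moved in opposite directions. It stood at 2404, 2736 and 2493 normalised read counts in shControl, at 2227, 2227 and 2075 in shARNT, and at 2937, 2982 and 3096 in shBMAL1. The 3 groups did not overlap, with shARNT lowest and shBMAL1 highest. The log2 fold change was -0.22 ± 0.07 in shARNT (adjusted p = 0.00611) and 0.24 ± 0.07 in shBMAL1 (adjusted p = 0.00616). Compared directly, KDM5B was 1.38-fold higher in shBMAL1 than in shARNT, at 0.46 ± 0.07 (adjusted p = 8.14e-10). Its promoter window held GCGTG once, at -64 from the start (GRCh37 chr1:202777596-202777625, minus strand), and is shown because the transcript was called in opposite directions in the knockdowns.
KDM5B: cggaggcgcacgGCGTGggcttgcggcgag

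KDM6B (GRCh37 chr17:7737535-7758114), which removes methyl groups from H3K27, rose in shBMAL1. The control libraries held 737, 787 and 805 normalised read counts, shARNT held 801, 677 and 703, and shBMAL1 held 1036, 1014 and 1034. The shBMAL1 libraries lay above all others, while shARNT and shControl overlapped. KDM6B was 1.32-fold higher in shBMAL1 than in shControl, at 0.40 ± 0.09 (adjusted p = 5.23e-05), and at 0.50 ± 0.10 relative to shARNT (adjusted p = 2.23e-06). In shARNT the value was -0.09, with an interval of -0.28 to 0.10 (adjusted p = 0.532). The deposited value of KDM6B was not a whole number in 7 of the 9 libraries, and how the fractions arose is not given in the sources used here.

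KDM2A (GRCh37 chr11:66886734-67025553) and KDM2B (chr12:121866899-122018928), which act on H3K36 and carry a domain that binds unmethylated CpG sites, separated from each other. KDM2B stood at 1943, 2067 and 2002 normalised read counts in shControl, at 1740, 1705 and 1652 in shARNT, and at 1660, 1546 and 1624 in shBMAL1. It was below the controls in all 6 knockdown libraries, at -0.23 ± 0.07 in shARNT (adjusted p = 0.00195) and -0.32 ± 0.08 in shBMAL1 (adjusted p = 0.000169), and the knockdowns overlapped each other. KDM2A stood at 5138, 5071 and 5079 in shControl, at 5727, 5597 and 5371 in shARNT, and at 5004, 4601 and 4602 in shBMAL1. The groups did not overlap, with shARNT highest and shBMAL1 lowest. KDM2A was higher, at 0.13 ± 0.05 in shARNT (adjusted p = 0.0404), did not pass the test in shBMAL1 (-0.11, interval -0.23 to 0.02; -0.15 and adjusted p = 0.0506 without shBMAL1 replicate 1), and lay below shARNT in shBMAL1, at -0.23 ± 0.07 (adjusted p = 0.0021). The shARNT call was lost in 5 of the 6 fits that left out 1 library, all but the one without shARNT replicate 3, with adjusted p up to 0.182. Reads of KDM2B per read of KDM2A were 0.378, 0.408 and 0.394 in shControl, 0.304, 0.305 and 0.307 in shARNT, and 0.332, 0.336 and 0.353 in shBMAL1, with no overlap among the groups. Exons of KDM2B share 439 bases with RNF34 and 232 with KDM2B-DT, both on the opposite strand, and exons of KDM2A share 679 bases with an opposite-strand non-coding RNA. The library kit kept strand, but the strand setting of the counting is not given in the sources used here.

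**Figure D3:**
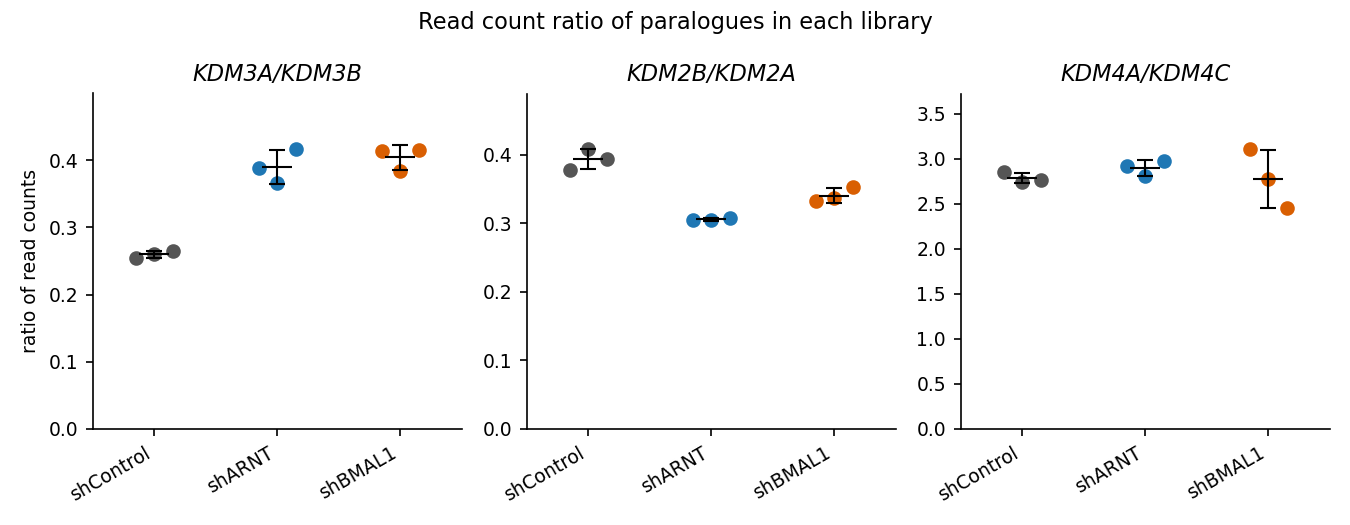
Ratio of read counts (vertical axis, from 0) of KDM3A to KDM3B, KDM2B to KDM2A and KDM4A to KDM4C in each library, with the group mean and 1 SD (n = 3). The first ratio is higher and the second lower in every knockdown library than in any control, and the third overlaps among the groups.

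KDM4A (GRCh37 chr1:44115820-44171189), KDM4B (chr19:4969124-5153609) and KDM4C (chr9:6720863-7175648), which act on methylated H3K9 and H3K36, did not pass the test in any comparison. KDM4A ranged from 2805 to 3437 normalised read counts in shControl, from 3075 to 3305 in shARNT and from 3172 to 3406 in shBMAL1. KDM4B, another known target of hypoxia-inducible factors, stood at 1560, 1495 and 1498 in shControl, at 1569, 1413 and 1351 in shARNT, and at 1738, 1418 and 1766 in shBMAL1. KDM4C stood at 1035, 1255 and 1016 in shControl, at 1054, 1100 and 1113 in shARNT, and at 1098, 1161 and 1293 in shBMAL1. The groups overlapped for each of the 3 genes. For KDM4B the 95% interval of the log2 fold change was -0.22 to 0.08 in shARNT and -0.07 to 0.29 in shBMAL1, and for KDM4C it was -0.19 to 0.16 and -0.10 to 0.30. Without shBMAL1 replicate 2, KDM4B passed the test in shBMAL1 against shControl (0.21, adjusted p = 0.0656) and against shARNT (0.28, adjusted p = 0.0191); it also passed the latter without shARNT replicate 1 (0.24, adjusted p = 0.0946). Without shControl replicate 2, KDM4A passed it in shBMAL1 (0.18, adjusted p = 0.0954). Exons of KDM4A share 2086 bases with another protein-coding gene on the same strand, and exons of KDM4C share 135 bases with a non-coding RNA on the same strand, so both counts are uncertain.

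The promoters of KDM4B and KDM4C are shown because they were the only ones among the 9 genes to hold an E-box. The KDM4B window held it at -241 from the start, with GCGTG at -224 and -77 (GRCh37 chr19:4968874-4969123, plus strand, 250 bases up to the start). KDM4C held E-boxes at -63 and -31 (GRCh37 chr9:6757898-6757927 and chr9:6757930-6757959, plus strand). Motifs are in capitals.
KDM4B: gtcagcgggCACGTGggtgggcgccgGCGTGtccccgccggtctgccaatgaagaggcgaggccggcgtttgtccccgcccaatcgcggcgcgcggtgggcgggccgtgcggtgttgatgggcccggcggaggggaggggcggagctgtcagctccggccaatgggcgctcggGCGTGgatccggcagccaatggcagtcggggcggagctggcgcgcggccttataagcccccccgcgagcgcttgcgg
KDM4C, distal: tgtttgtaagccCACGTGactcaccaagtg
KDM4C, proximal: ggccccagcggtCACGTGacggcgcgcgcg
KDM4C also held GCGTG at -96.

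JMJD6 (GRCh37 chr17:74708914-74722881), a JmjC protein known chiefly as a lysyl hydroxylase, fell in shBMAL1. It stood at 1279, 1475 and 1575 normalised read counts in shControl, at 1413, 1226 and 1315 in shARNT, and at 1103, 1018 and 1194 in shBMAL1. The shBMAL1 libraries lay below all others, and shARNT overlapped shControl. The log2 fold change was -0.39 ± 0.10 in shBMAL1 (adjusted p = 0.000527) and -0.13 in shARNT, with an interval of -0.30 to 0.04 (adjusted p = 0.294). Relative to shARNT, JMJD6 in shBMAL1 lay lower, at -0.26 ± 0.09 (adjusted p = 0.0228). That call was lost without shARNT replicate 1 (adjusted p = 0.161) and without shBMAL1 replicate 2 (0.146), and without shControl replicate 1 JMJD6 passed the test in shARNT (-0.21, adjusted p = 0.0877).

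Levels of different genes were compared per kilobase of merged exons (GENCODE, GRCh37), as normalised read counts per kilobase in shControl. KDM3B was highest at 703 ± 39.5 (SD, n = 3), followed by KDM4A at 591 ± 63.9 and KDM2A at 491 ± 3.5. KDM3B and KDM4A overlapped between libraries. JMJD6 followed at 242 ± 25.2 and KDM2B at 147 ± 4.56. The remaining 5 genes lay between 102 for KDM5B and 108 for KDM3A, and did not differ beyond their spread. In shBMAL1, KDM3A stood at 167 ± 3.38 and KDM2B at 118 ± 4.27, so their order was the reverse of that in shControl. In shARNT they stood at 156 ± 7.54 and 125 ± 3.26. With the length of the longest transcript in place of merged exons, KDM3A was at 254 ± 5.14 and KDM2B at 241 ± 8.73 in shBMAL1, at 238 ± 11.5 and 254 ± 6.66 in shARNT, where the order then did not reverse, and at 165 ± 7.68 and 300.2 ± 9.31 in shControl. With that length KDM2A, at 690 ± 4.92, came before KDM4A, at 683 ± 73.8, KDM5B moved from the last place to the fifth, at 268 ± 18.1, and KDM6B was the lowest, at 115 ± 5.25.

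Genes with the most similar profile were sought for the 3 JmjC genes called in both knockdowns, by the root mean square difference of centred log2 values over 9 libraries, among 11822 genes. For KDM3A they were TNIK at 0.058 and ZMAT3 at 0.059, and for KDM5B MLH3 at 0.046 and SYNE2 at 0.050. For KDM2B they were EEF2 at 0.025 and RACK1 at 0.027, which encode a translation elongation factor and a ribosome-associated protein. The nearest of the other JmjC genes was KDM6B for KDM5B, at 0.10 and only in place 138. For KDM2B it was JMJD6, at 0.11 in place 1105, and for KDM3A it was KDM4A, at 0.25 in place 2216.

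Of 20 other genes with a JmjC domain, 18 were tested in shARNT, of which 5 fell and 2 rose, and 19 in shBMAL1, of which 5 fell and 3 rose. These shares lay near the 35.4% and 36.8% of all genes tested that passed. KDM7A, a demethylase of H3K9 and H3K27, fell by 0.61 on the log2 scale in shARNT and by 0.48 in shBMAL1. JARID2, a Polycomb cofactor without demethylase activity, fell by 0.43 in shARNT and by 0.35 in shBMAL1, and JMJD7 fell by 0.38 in shARNT and by 0.36 in shBMAL1. PHF2, which acts on H3K9, fell by 0.56 in shBMAL1. KDM8 rose by 0.68, JMJD4 by 0.32 and JMJD8 by 0.15 in shBMAL1, and JMJD1C rose by 0.18 and HSPBAP1 by 0.33 in shARNT. JMJD8 was called in the other direction in shARNT, at -0.11 (adjusted p = 0.0982), a call lost in 5 of the 6 fits that left out 1 library, and was higher in shBMAL1 than in shARNT by 0.27 (adjusted p = 4.7e-05). The calls of HSPBAP1 (adjusted p = 0.0879), JMJD8 in shBMAL1 (0.0541) and JMJD7 in shBMAL1 (0.0345) were each lost in at least 3 of the 6 fits that left out 1 library. Without shControl replicate 1, 5 of the list passed in shBMAL1. KDM4E was at 0 in every library.

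Both flavin-dependent demethylases of H3K4, which use no 2-oxoglutarate, fell in each knockdown, where 19.0% (shARNT) and 19.4% (shBMAL1) of all genes tested fell. KDM1A fell by 0.14 and KDM1B by 0.48 in shARNT, and by 0.27 and 0.58 in shBMAL1.

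Of 19 methyltransferases of H3K4, H3K9, H3K27 and H3K36, the enzymes that place the marks, 4 fell and 6 rose in shARNT, and 7 fell and 4 rose in shBMAL1, beside 35.4% and 36.8% of all genes tested that passed in either direction. KMT2A and KMT2D, which methylate H3K4, fell by 0.47 and 0.40 in shARNT and by 0.33 and 0.45 in shBMAL1. NSD2, which methylates H3K36, fell by 0.31 in shARNT and by 0.37 in shBMAL1, and its relative NSD1 fell by 0.54 in shBMAL1. SUV39H1, which methylates H3K9, fell by 0.29 in shARNT, a call lost without shARNT replicate 3 (adjusted p = 0.144), and by 0.41 in shBMAL1. SETD1A, an H3K4 enzyme, rose by 0.30, ASH1L, an H3K36 enzyme, by 0.22 and EZH2, an H3K27 enzyme, by 0.19 in shARNT. EZH1 rose by 0.36, SETDB1 by 0.24, SUV39H2 by 0.21 and ASH1L by 0.17 in shBMAL1. The EZH1, SUV39H2 and ASH1L calls in shBMAL1 were lost in 4 or more of the 6 fits without 1 library, and the SETDB1 call without shControl replicate 3 (adjusted p = 0.137). Without that library 6 of the 19 passed in shBMAL1.

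KDM2B brings a variant Polycomb complex (PRC1.1) to CpG islands. Of its 9 other subunits examined, 1 rose and none fell in shARNT, and 4 fell and 1 rose in shBMAL1, where 19.4% of all genes tested fell and 17.4% rose (19.0% and 16.5% in shARNT). With edgeR, with TMM size factors and with the filter on low counts, 2 passed in shARNT. PCGF1 fell by 0.54, BCORL1 by 0.50 and RNF2 by 0.36 in shBMAL1. RYBP rose by 0.23 in shBMAL1 (adjusted p = 0.0842), a call lost in each fit without 1 library, and SKP1 rose by 0.20 in shARNT, a call lost without shControl replicate 3, shARNT replicate 2 or shARNT replicate 3 (adjusted p = 0.111, 0.123 and 0.125). Of 5 other nuclear enzymes that use 2-oxoglutarate, TET3 fell by 0.34 and FTO rose by 0.22 in shARNT, and ALKBH5 fell by 0.50 and TET2 rose by 0.48 in shBMAL1. The TET3 call was lost without shControl replicate 2 (adjusted p = 0.145) and without shARNT replicate 3 (0.203).

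**Figure D4:**
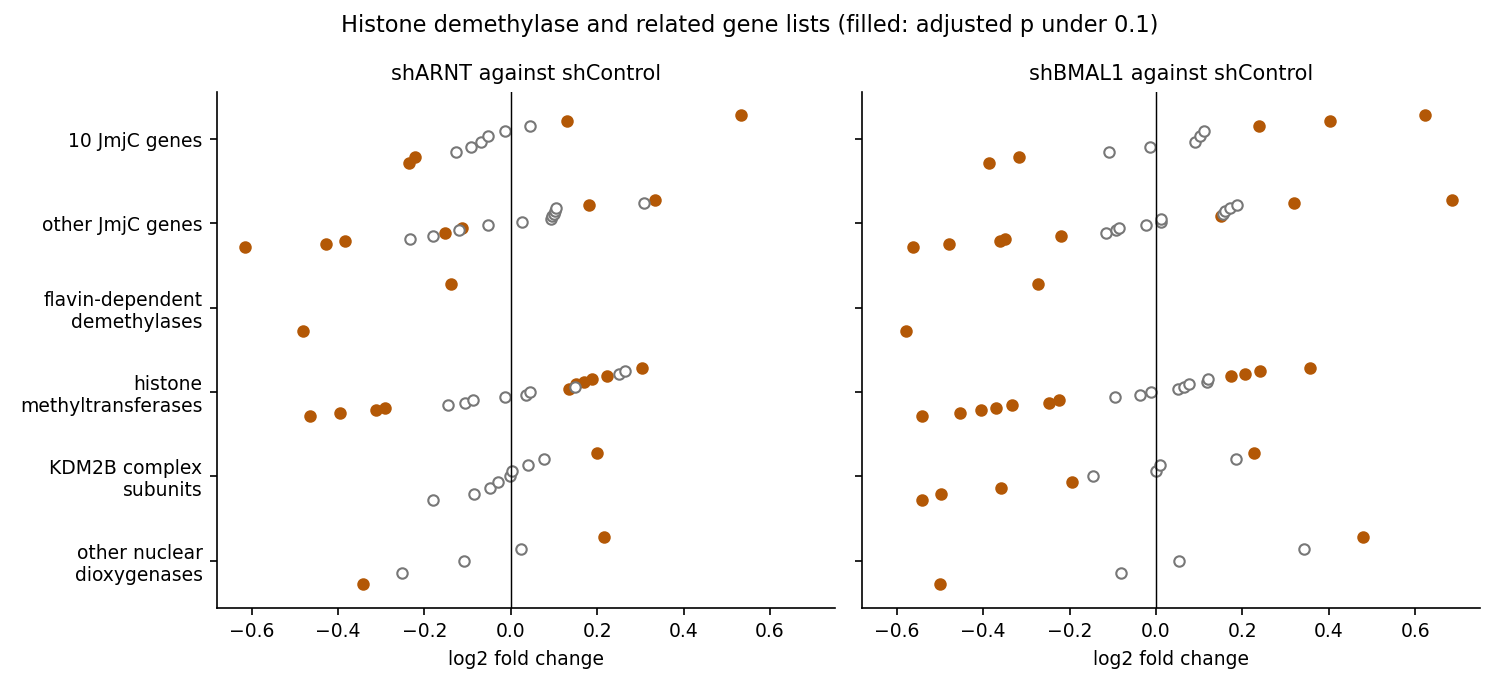
Log2 fold change (horizontal axis) of every tested gene of each list in shARNT and in shBMAL1 against shControl, 1 point per gene, filled where the adjusted p was under 0.1. Genes of a list are spread vertically for legibility, and HR, which had at most 14.7 normalised read counts in any library, is not drawn; both flavin-dependent demethylases lie below 0 in each panel.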

How the data were processed

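RNA of 9 libraries was sequenced as paired-end reads from a stranded kit. The authors deposited estimated counts per gene, not scaled to library size. The study's methods give GRCh37, SeqMan NGen and ArrayStar, whereas the processing notes in the labels name hg38 and STAR; the annotation and strand setting of the counting are not given in the sources used here. A value of 0.009 stood in for 0, and 6.14% of the other values were fractional; all were rounded. The table had 38074 rows, of which 53 were added to a row of the same name and 28 with symbols turned into dates were kept apart and never named.

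Each comparison was fitted with DESeq2 1.42.0 (R 4.3.3) on its 6 libraries and the whole table, with a two-sided Wald test and Benjamini-Hochberg adjustment, and called at an adjusted p under 0.1. Scripts were tested on simulated data. Normalised read counts were scaled over all 9 libraries. Alternatives were edgeR 4.0.16 with TMM, TMM size factors, a filter of 10 counts in 3 libraries, other thresholds, a fit of all libraries, a replicate block and leaving out each library. The members and lists were chosen with earlier results of these data known. Named were all members, both targets, and up to 3 called genes per list, knockdown and direction with the largest changes and a mean of at least 50 normalised read counts. Where such a gene was also called in the other knockdown, that value was given too. One marker of another cell type is not reported here. P-values measure the spread between these libraries only.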

Additional observations from a re-analysis of the deposited data

Results flagged for a closer look

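KDM5B was lower in shARNT and higher in shBMAL1 than in shControl, and the direct comparison of shBMAL1 with shARNT gave a log2 fold change of 0.46 (DESeq2 adjusted p = 8.14e-10, 3 libraries a group, no overlap between groups). It was the only one of the 10 JmjC genes called in opposite directions in the knockdowns. How many of all genes tested were called in opposite directions was not counted, so no share stands beside this gene. Both KDM5B calls against shControl held in each fit that left out 1 library, with DESeq2 adjusted p up to 0.0886 in shARNT and 0.0785 in shBMAL1. Among the other JmjC genes, JMJD8 was also called lower in shARNT and higher in shBMAL1, and its direct comparison gave 0.27 (adjusted p = 4.7e-05); its call in shARNT was lost in 5 of the 6 fits that left out 1 library. Groups of 3 libraries are too small for the test of single outlying samples.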

How the results depend on the processing

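The number of JmjC genes called was 4 in shARNT, 5 in shBMAL1 and 4 between the knockdowns, and was the same with edgeR, with TMM size factors, with the filter on low counts, at an adjusted p under 0.05 and in the single fit of all libraries. With a minimum change of 1.5-fold the counts were 0, 1 and 0, the single gene being KDM3A in shBMAL1. That minimum also cut the lists in shARNT. The other JmjC genes called went from 7 to 1, the methyltransferases from 10 to 0 and the flavin-dependent demethylases from 2 to 0. The KDM2B complex subunits went from 1 to 0 and the other nuclear 2-oxoglutarate enzymes from 2 to 0. Leaving out 1 library gave 3 to 4 JmjC genes in shARNT, 5 to 6 in shBMAL1 and 4 in each fit between the knockdowns. The steady count between the knockdowns hid an exchange of genes. Without shARNT replicate 1 and without shBMAL1 replicate 2, JMJD6 lost its call there and KDM4B gained a call. In shARNT against shControl without shControl replicate 1, KDM2A lost its call and JMJD6 gained a call. Same-numbered libraries did not deviate together (correlations from -0.15 to 0.11), so the numbers do not pair them; with the replicate block 3, 5 and 4 genes were called, KDM2A in shARNT being lost (0.13, adjusted p = 0.104). Small changes that were not called turned sign without 1 library: in shARNT, KDM4A ranged from -0.015 (without shControl replicate 3) to 0.136 and KDM4C from -0.070 to 0.090 (without shControl replicate 2; above 0 also without shARNT replicate 1), and in shBMAL1, KDM3B ranged from -0.061 to 0.020 (without shControl replicate 2; above 0 also without shBMAL1 replicate 1). The cause was not tested. Of 390 alternative values for the JmjC genes, 359 kept direction and call. The settings that changed only the threshold reused the main fold changes, so direction could not change in them. With the 1.5-fold minimum an uncalled gene could not gain a call. With 3 libraries a group, the intervals of uncalled genes reached from -0.30 (JMJD6 in shARNT) to 0.37 (KDM4B between the knockdowns) on the log2 scale.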
